A study of Mus musculus with 8 samples.

Results

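The class I antigen presentation genes and Cd74 were followed in immortalized mouse pancreatic stellate cells (PSCs), the fibroblast-like cells of the pancreas, after exposure to medium conditioned by pancreatic cancer organoids. Members were the rows of the deposited count table with the symbols H2-K1, H2-D1, B2m, Tap1, Tap2, Tapbp, Psmb8, Psmb9, Psmb10 and Cd74, and all 10 were found among its 12160 genes. PSCs were embedded in Matrigel, fed DMEM with serum for 4 days and then kept for another 4 days in 1 of 3 media. The conditioned media (CM) came from organoids of KPC mouse pancreatic cancer cells carrying a short hairpin RNA against Brca2 (shBrca2-CM, 3 libraries) or a non-targeting one (shControl-CM, 3 libraries), and 2 libraries came from control medium. This last medium is named DMEM in the sample titles and medium conditioned by the PSCs themselves in the treatment record, and is called control medium here. Brca2 was silenced in the organoids that made the medium and not in the PSCs sequenced, every library came from the same immortalized line, and each was a separate culture dome. The cells received the medium of the organoids and were not cultured with them.

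Class I molecules show peptides from inside the cell to CD8 T cells. A heavy chain, such as those encoded by H2-K1 and H2-D1, pairs with beta-2 microglobulin (B2m). Peptides are cut by the proteasome, whose catalytic subunits are exchanged for Psmb8, Psmb9 and Psmb10 in the immunoproteasome, are moved into the endoplasmic reticulum by the transporter made of Tap1 and Tap2, and are loaded with the help of tapasin (Tapbp). Interferons are known to raise most of these genes together. Cd74, the invariant chain, belongs to the class II pathway, where it guides class II molecules to the endosome, and it also serves at the cell surface as a receptor for the cytokine MIF.

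Counts on genes summed to 5476988 and 4623846 with control medium, 1093609 to 1624392 with shControl-CM, and 655996 to 1095534 with shBrca2-CM. A count of 3, taken as the floor, corresponded to 4.34 CPM (counts as a share of the library, scaled by edgeR's TMM method over the 8 libraries) in the shallowest library and 0.521 CPM in the deepest, for counting error only. All members lay above this floor in every library. Together they took 0.488% to 0.757% of the counts. Libraries held the 3' ends of RNA, so counts were not scaled to length and the levels of different genes are not ranked against each other. All 12 fibroblast or stellate cell markers listed had over 3 counts in every library. Their summed level was 7209 and 8804 CPM with control medium, 4988 to 5912 CPM with shControl-CM and 4097 to 4635 CPM with shBrca2-CM. By the edgeR test given next, 4 were called higher and 5 lower with shControl-CM, and 5 higher and 5 lower with shBrca2-CM. Between the conditioned media 1 was higher and 3 were lower with shBrca2-CM. Vim was the largest part of the sum with control medium, at a mean of 3756 CPM. It was at 361 CPM with shControl-CM and 586 CPM with shBrca2-CM. Dcn went the other way, with means of 92.4, 2107 and 1086.5 CPM, so the sum does not describe the markers one by one. Of the 10 epithelial markers, 3 were in the table, with a summed level of 59.3 to 94.1 CPM with shBrca2-CM, 57.7 to 70.6 CPM with shControl-CM and 37.0 to 41.7 CPM with control medium, and the part of either list in the results below was not tested. These 3 did not move alike: by the same test, Krt18 and Muc1 were called higher with both conditioned media, and Krt19 was called lower with both and higher with shBrca2-CM than with shControl-CM. In such bulk samples, fewer cells of a type and less RNA per cell cannot be told apart.

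Groups were compared 2 at a time by the quasi-likelihood test of edgeR over all genes. A gene was called when its Benjamini-Hochberg adjusted p was under 0.1, its log2 fold change was beyond 0.5 in either direction and its normalized count averaged over 5. Against control medium the members did not move as a block. With shControl-CM, 2 of 10 were called higher (B2m, Cd74), where 18.4% of the 12086 genes tested were higher, and 4 of 10 were called lower (H2-K1, Tap2, Psmb9, Psmb10), where 19.5% were lower. With shBrca2-CM, 3 of 10 were called higher (B2m, Tapbp, Cd74), against 19.1% of 12049 genes, and 3 of 10 lower (Tap2, Psmb9, Psmb10), against 19.8%. The median log2 fold change of the members was -0.30 with shControl-CM and -0.07 with shBrca2-CM, beside -0.10 and -0.05 over all genes tested. Both comparisons used the same 2 control medium libraries. They were fitted separately, so adjusted p values are not to be ranked between them. Between shBrca2-CM and shControl-CM no member was called, while 1.55% of 11035 genes were called higher and 1.55% lower.

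**Figure D1:**
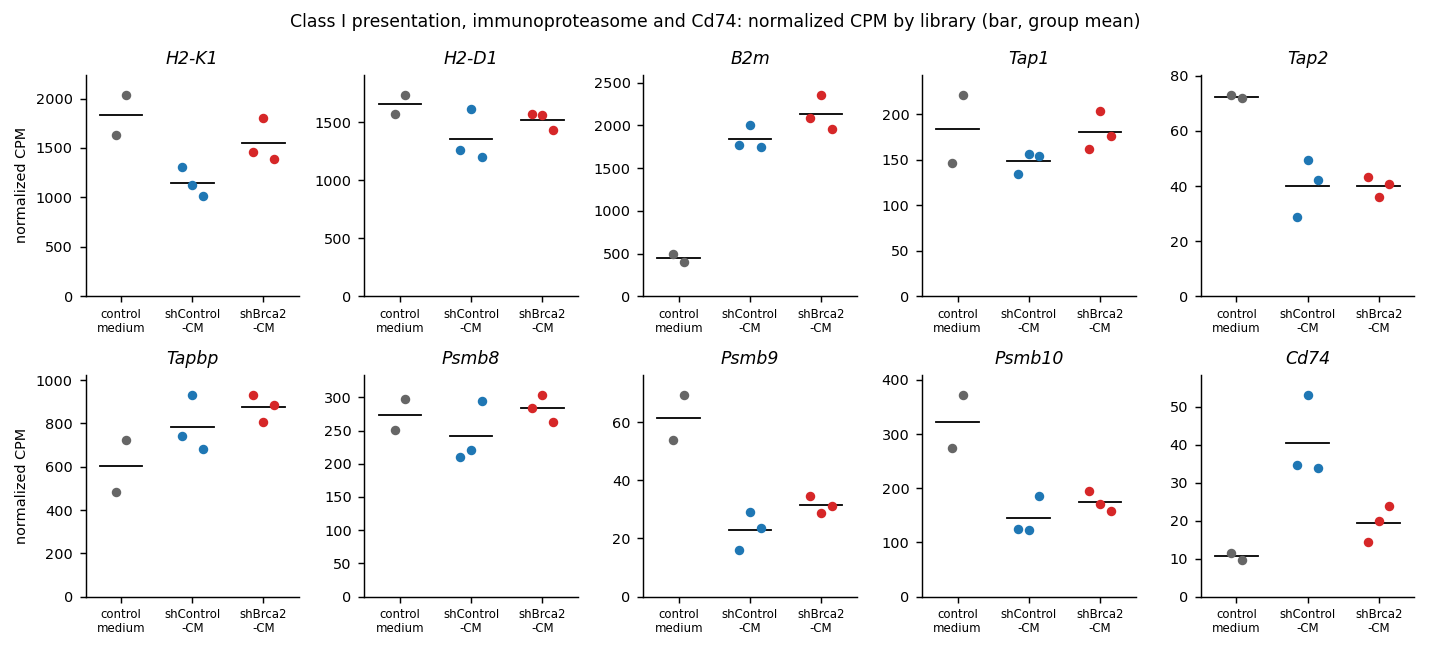
Normalized CPM (y axis, linear from 0) of each member in the 8 libraries, by medium, with each point a library and each bar the group mean. B2m lies at 398 and 500 CPM with control medium and at 1750 CPM or more in all 6 CM libraries, whereas Tap2, Psmb9 and Psmb10 lie lower with both conditioned media than with control medium.

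B2m, the light chain shared by class I molecules, was well above control medium with both conditioned media. It was at 500 and 398 CPM in the control medium libraries, at 1774, 2005 and 1750.2 CPM with shControl-CM, and at 2083, 2359 and 1960 CPM with shBrca2-CM. Every CM library was thus above both control medium libraries, and the CM groups overlapped. B2m was 4.08-fold higher with shControl-CM than with control medium (log2 fold change 2.03, standard error, SE, 0.17, edgeR adjusted p = 3.73e-05). With shBrca2-CM it was 4.76-fold higher (log2 fold change 2.25, SE 0.14, edgeR adjusted p = 2.31e-20). B2m ranked 356th of 12086 and 212th of 12049 genes by log2 fold change in these comparisons. With all 3 groups in one fit, its edgeR adjusted p was 2.295e-07 with shControl-CM and 1.706e-07 with shBrca2-CM, much closer than in the separate fits.

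The classical heavy chains that pair with B2m did not rise with it. H2-K1 was at 1633 and 2039 CPM with control medium, at 1306, 1129 and 1017 CPM with shControl-CM, and at 1457, 1799 and 1392 CPM with shBrca2-CM. The shControl-CM libraries were the lowest 3 of the 8. H2-K1 fell with shControl-CM (log2 fold change -0.68, SE 0.17, edgeR adjusted p = 0.0136), a call lost without control medium replicate 2 (log2 fold change -0.51, edgeR adjusted p = 0.151). With shBrca2-CM its log2 fold change against control medium was -0.24 (95% confidence interval -0.51 to 0.02), and the test was not passed (edgeR adjusted p = 0.145). H2-D1 was at 1572 and 1738 CPM with control medium, at 1259, 1611 and 1205 CPM with shControl-CM, and at 1569.6, 1564 and 1436 CPM with shBrca2-CM. Its log2 fold changes against control medium were -0.29 (95% confidence interval -0.67 to 0.09) with shControl-CM and -0.12 (-0.37 to 0.14) with shBrca2-CM, and neither passed the test (edgeR adjusted p = 0.214 and 0.499). Both intervals lie far under the log2 increase of B2m.

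Because a ratio of 2 genes within a library does not depend on library scaling, B2m counts were divided by the summed counts of H2-K1 and H2-D1, a ratio chosen after the values were seen. The ratio was 0.156 and 0.105 with control medium, 0.691, 0.732 and 0.788 with shControl-CM, and 0.688, 0.701 and 0.693 with shBrca2-CM. It was 5.74-fold higher with shControl-CM and 5.41-fold higher with shBrca2-CM than with control medium, with no overlap (2-sided exact permutation p = 0.1 for each, the smallest that 3 against 2 libraries can give). Between the conditioned media the ratios overlapped (fold 0.943, exact permutation p = 0.3). Class I heavy chain genes resemble each other, and how the authors' counting split reads between them is not given in the sources used here. The rows of H2-K2 and H2-L, which could take such reads, held 0.522% to 1.24% of the classical heavy chain CPM, and with them added the folds were 5.74 and 5.40.

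The promoters of both heavy chains and of B2m are shown because these partners of one complex went apart, and that of Tap1 because its start lies beside that of Psmb9, which changed more. Windows run from 250 bases before to 50 bases after the RefSeq start of each gene (GRCm38.p6, the build family of the submitters' mm10), written 5' to 3' on the gene's strand. B2m lies on chromosome 2 (chr2:122147437-122147736, plus strand), and the other windows on chromosome 17, which holds 7 of the 10 members: H2-K1 at chr17:34000298-34000597 on the minus strand, inside the annotated span of the gene, which reaches further upstream than this start, H2-D1 at chr17:35262844-35263143 on the plus strand, and Tap1 at chr17:34187306-34187605 on the plus strand. Capitals mark matches, on either strand, to 4 motifs: the interferon response element core GAAANNGAA, the gamma-activated site TTCNNNGAA, the NF-kB core GGGNNTTCC and the CCAAT box.
B2m: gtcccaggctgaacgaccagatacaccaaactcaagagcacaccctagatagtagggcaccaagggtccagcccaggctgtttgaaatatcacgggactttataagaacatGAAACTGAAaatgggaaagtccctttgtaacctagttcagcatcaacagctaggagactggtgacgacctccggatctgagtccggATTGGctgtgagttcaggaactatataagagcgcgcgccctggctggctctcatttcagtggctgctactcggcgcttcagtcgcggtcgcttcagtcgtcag
H2-K1: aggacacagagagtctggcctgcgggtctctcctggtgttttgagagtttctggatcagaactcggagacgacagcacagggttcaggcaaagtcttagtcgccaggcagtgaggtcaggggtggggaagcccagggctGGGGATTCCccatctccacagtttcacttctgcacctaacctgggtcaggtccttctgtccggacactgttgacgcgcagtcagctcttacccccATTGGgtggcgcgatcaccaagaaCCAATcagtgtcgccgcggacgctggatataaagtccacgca
H2-D1: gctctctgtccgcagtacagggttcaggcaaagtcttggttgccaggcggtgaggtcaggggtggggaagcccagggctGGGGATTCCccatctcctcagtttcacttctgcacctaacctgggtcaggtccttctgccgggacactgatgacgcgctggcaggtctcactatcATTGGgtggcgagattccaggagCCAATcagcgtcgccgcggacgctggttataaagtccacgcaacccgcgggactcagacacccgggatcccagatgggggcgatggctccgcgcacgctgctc
Tap1: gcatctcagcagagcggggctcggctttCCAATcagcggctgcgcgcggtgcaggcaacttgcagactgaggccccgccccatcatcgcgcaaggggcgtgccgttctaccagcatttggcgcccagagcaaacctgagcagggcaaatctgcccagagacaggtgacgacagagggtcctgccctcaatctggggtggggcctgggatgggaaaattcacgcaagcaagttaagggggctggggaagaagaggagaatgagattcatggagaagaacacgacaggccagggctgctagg

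Of the members, 8 had a window in the RefSeq promoter table. The interferon response element core was matched in the B2m window, 139 to 131 bases before the start, and in no other member's window, and 8.56% of all 32851 windows held it. An NF-kB core was matched in the H2-K1 and H2-D1 windows, where 5.82% of all windows held one. These windows share an identical run of 47 bases around that match, which begins at position -141 from the H2-K1 start and -201 from the H2-D1 start. The gamma-activated site was matched in the Psmb8 window, and in 8.3% of all windows. CCAAT boxes were matched in 6 of the 8 member windows (H2-K1, H2-D1, B2m, Tap1, Tapbp, Psmb9) and in 37.4% of all windows. No match overlapped one of another motif. Tap1 and Psmb9 are transcribed away from each other from starts 226 bases apart, so the match in the Tap1 window and that in the Psmb9 window are the same 5 bases. Only these exact letters were searched, and other forms of such sites were not. A window without a match may therefore still hold such a site, in B2m and the heavy chains as in the others. The matches describe letters in the sequence, and binding was not measured in these files.

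**Figure D2:**
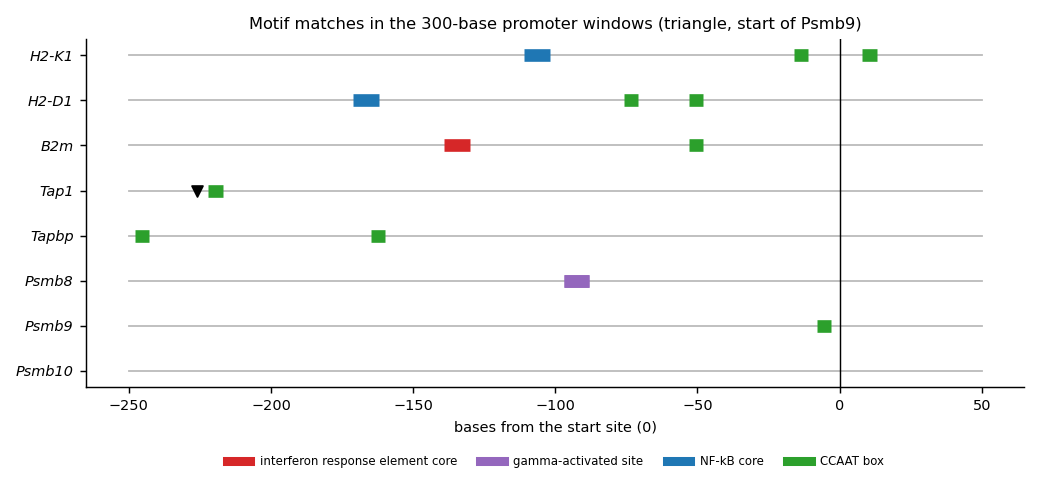
Motif matches along the promoter windows of the 8 members that had one (x axis, bases from the start site at 0), with colours for the 4 motifs and a triangle at the start of Psmb9 in the Tap1 window. The interferon response element core is matched in B2m at -139 to -131, an NF-kB core in each of H2-K1 and H2-D1, and none of the 4 in Psmb10. Only the exact letters of the 4 motifs were searched, so a window without a match may hold another form of a site.

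Among the transporter and loading genes, Tap2 was lower with both conditioned media, and Tap1, its partner in the transporter, did not pass the test. Tap2 was at 73.2 and 71.8 CPM with control medium, at 28.8, 49.3 and 42.1 CPM with shControl-CM, and at 43.4, 36.1 and 40.8 CPM with shBrca2-CM. All 6 CM libraries were below both control medium libraries, and the CM groups overlapped. The log2 fold change of Tap2 was -0.88 with shControl-CM (SE 0.23, edgeR adjusted p = 0.0150) and -0.85 with shBrca2-CM (SE 0.19, edgeR adjusted p = 2.06e-04). The first of these calls was lost when either control medium library was left out (edgeR adjusted p = 0.134 without replicate 1 and 0.111 without replicate 2), while the log2 fold change stayed at -0.84 and -0.89.

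Tap1 was at 146 and 221 CPM with control medium, at 135, 156 and 154 CPM with shControl-CM, and at 162, 203 and 176 CPM with shBrca2-CM. Its control medium libraries spanned nearly the whole range of the 8. Log2 fold changes against control medium were -0.32 with shControl-CM (95% confidence interval -0.75 to 0.12, edgeR adjusted p = 0.243) and -0.02 with shBrca2-CM (-0.33 to 0.29, edgeR adjusted p = 0.937). Tapbp, which bridges the transporter and the heavy chain, was at 485 and 725 CPM with control medium, at 743, 931 and 682 CPM with shControl-CM, and at 932, 806 and 885 CPM with shBrca2-CM. The shBrca2-CM libraries lay above both control medium libraries, and the shControl-CM libraries overlapped them. Tapbp rose with shBrca2-CM (log2 fold change 0.54, SE 0.14, edgeR adjusted p = 0.00192). This change was under the fold threshold without shBrca2-CM replicate 1 (log2 fold change 0.48) and without control medium replicate 1 (0.27). With shControl-CM its log2 fold change was 0.37 (95% confidence interval -0.09 to 0.83, edgeR adjusted p = 0.197).

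Of the 3 immunoproteasome subunits, Psmb9 and Psmb10 were lower with both conditioned media and Psmb8 did not pass the test. Psmb9 was at 53.9 and 69.4 CPM with control medium, at 16.0, 29.0 and 23.8 CPM with shControl-CM, and at 34.7, 28.6 and 31.1 CPM with shBrca2-CM. Psmb10 was at 274 and 372 CPM with control medium, at 126, 124 and 186 CPM with shControl-CM, and at 195, 172 and 159 CPM with shBrca2-CM. For both genes every CM library was below both control medium libraries. Psmb9 fell by 1.46 on the log2 scale with shControl-CM (SE 0.26, edgeR adjusted p = 0.00266) and by 0.97 with shBrca2-CM (SE 0.21, edgeR adjusted p = 1.14e-04), which is 0.364 and 0.511 of the level with control medium. Psmb10 fell by 1.16 with shControl-CM (SE 0.21, edgeR adjusted p = 0.00284) and by 0.89 with shBrca2-CM (SE 0.15, edgeR adjusted p = 2.32e-06). These calls held without any single library. Psmb8 was at 251 and 297 CPM with control medium, at 210, 221 and 294 CPM with shControl-CM, and at 284, 304 and 264 CPM with shBrca2-CM. The 3 groups overlapped, with log2 fold changes against control medium of -0.19 (95% confidence interval -0.59 to 0.22, edgeR adjusted p = 0.452) and 0.05 (-0.24 to 0.34, edgeR adjusted p = 0.815). The count ratios of Psmb8 to Psmb9 and to Psmb10, chosen after the values were seen, were higher without overlap than with control medium, 2.41 and 1.96-fold with shControl-CM and 2.02 and 1.90-fold with shBrca2-CM (exact permutation p = 0.1 for each, the smallest possible).

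Psmb9 and Tap1 start from one stretch of sequence, and their ratio, chosen after the values were seen, also differed between media. Psmb9 counts were 0.369 and 0.314 of Tap1 counts with control medium, 0.119, 0.186 and 0.154 with shControl-CM, and 0.214, 0.141 and 0.177 with shBrca2-CM. No CM library reached the control medium libraries (fold 0.442 with shControl-CM and 0.513 with shBrca2-CM, exact permutation p = 0.1 for each, the smallest possible).

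Each immunoproteasome subunit takes the place of 1 constitutive subunit in the proteasome, Psmb8 that of Psmb5, Psmb9 that of Psmb6 and Psmb10 that of Psmb7. Ratios of these pairs were taken within each library on CPM plus 0.5. Psmb10 to Psmb7 was 10.3 and 13.5 with control medium, 1.39, 1.24 and 1.59 with shControl-CM, and 1.92, 2.12 and 1.92 with shBrca2-CM. The groups did not overlap, and the geometric mean ratio was 0.119 and 0.169 of that with control medium. Psmb7 itself moved the other way from Psmb10, at 26.2 and 27.1 CPM with control medium, 90.3, 99.5 and 117 CPM with shControl-CM, and 101, 80.9 and 82.6 CPM with shBrca2-CM. It rose with shControl-CM (log2 fold change 1.93, SE 0.19, edgeR adjusted p = 9.72e-05) and with shBrca2-CM (1.72, SE 0.19, edgeR adjusted p = 2.11e-11).

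Psmb9 to Psmb6 was 0.0965 and 0.107 with control medium, 0.0288, 0.0518 and 0.0415 with shControl-CM, and 0.0695, 0.0530 and 0.0627 with shBrca2-CM. Psmb8 to Psmb5 was 2.53 and 3.06 with control medium, 1.71, 1.75 and 1.87 with shControl-CM, and 2.08, 3.33 and 2.96 with shBrca2-CM. For all 3 pairs every shBrca2-CM library had a higher ratio than every shControl-CM library, by 1.54, 1.55 and 1.42-fold for Psmb8, Psmb9 and Psmb10. The exact permutation p was 0.1 for each of these, the smallest that 3 against 3 libraries can give, and 0.113 after Benjamini-Hochberg adjustment over the 9 ratio tests, so that none could pass a threshold of 0.05. Among single genes tested, 9.14% were higher and 10.6% lower without overlap in this comparison. The denominators Psmb5, Psmb6 and Psmb7 had log2 fold changes of -0.35, -0.12 and -0.19 in it, none of them called. Against control medium, 5 of the 6 ratio comparisons also reached p = 0.1, and that of Psmb8 to Psmb5 with shBrca2-CM did not (fold 0.983, exact permutation p = 0.9).

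**Figure D3:**
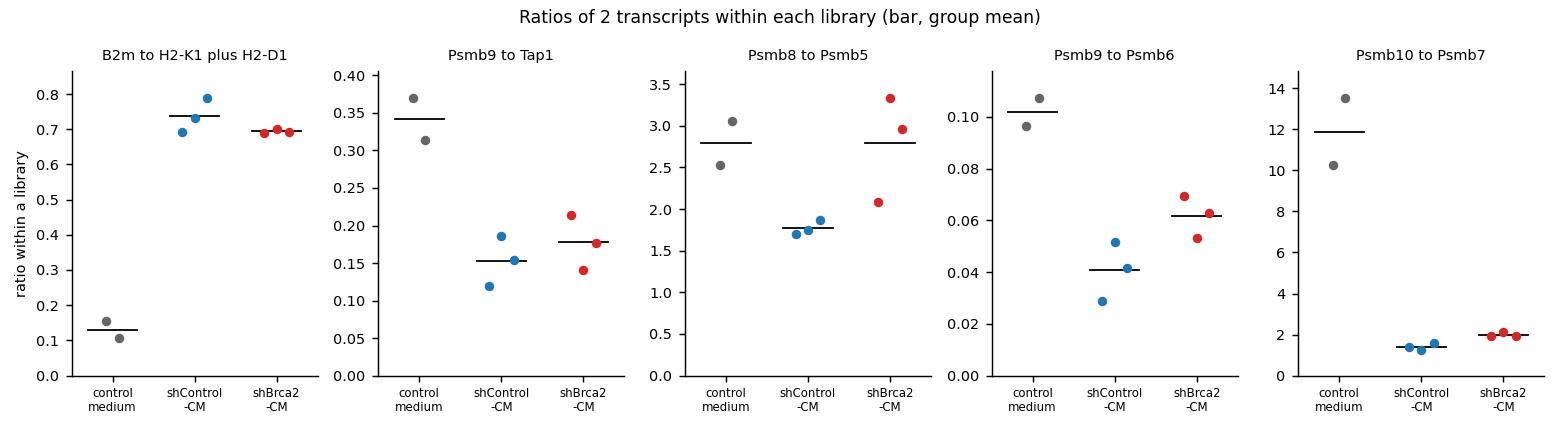
Ratio of 2 transcripts within each library (y axis, linear from 0) by medium, with each point a library and each bar the group mean. B2m to the summed heavy chains is 0.105 and 0.156 with control medium and 0.688 to 0.788 with conditioned media, while Psmb10 to Psmb7 is 10.3 and 13.5 with control medium and 1.24 to 2.12 with conditioned media.

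Cd74 was counted 66 and 45 times with control medium (11.5 and 9.67 CPM), 54, 55 and 50 times with shControl-CM (34.6, 53.1 and 34.0 CPM), and 10, 16 and 27 times with shBrca2-CM (14.5, 19.9 and 23.97 CPM). The 3 groups did not overlap, with control medium lowest and shControl-CM highest. Cd74 was 3.75-fold higher with shControl-CM than with control medium (log2 fold change 1.91, SE 0.30, edgeR adjusted p = 0.00122) and 1.88-fold higher with shBrca2-CM (log2 fold change 0.91, SE 0.30, edgeR adjusted p = 0.0106). Without shBrca2-CM replicate 3, its deepest library, the second call was lost (log2 fold change 0.71, edgeR adjusted p = 0.151). Haematopoietic cells express Cd74 strongly, and part of their markers moved with it. Of 10 such markers listed, 4 were in the table (Cd68, Csf1r, Lyz2, Fcer1g), and the other 6, Ptprc among them, were not analysed here. Their summed level was 10.7 and 12.2 CPM with control medium, 24.3 to 40.1 CPM with shControl-CM and 13.0 to 29.3 CPM with shBrca2-CM. All of these but Cd68 were at 0 counts in shBrca2-CM replicate 1, where Cd74 had 10 counts. Cd68 was called higher with both conditioned media and Csf1r with shControl-CM alone, with a mean of 1.60 CPM with shBrca2-CM and 2.18 CPM with control medium. Lyz2 and Fcer1g were called in neither comparison, and the log2 fold changes of Lyz2 were -0.56 and -0.23. Within a library the ratio of Cd74 to Cd68 counts, chosen after the values were seen, was 2.44 and 2.5 with control medium, 2.45, 3.06 and 1.61 with shControl-CM and 1.11, 2.29 and 1.29 with shBrca2-CM. Against control medium it overlapped with shControl-CM (fold 0.929, exact permutation p = 0.9) and was lower without overlap with shBrca2-CM (fold 0.600, exact permutation p = 0.2, where 0.1 is the smallest possible). Cd68 is 1 marker of the list, with 7 to 31 counts a library, and the markers did not move alike, so the part of such cells in the Cd74 result was not settled by these values.

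The class II chains with which Cd74 works were near absent. H2-Ab1 had 9 and 3 counts with control medium, 1, 1 and 2 with shControl-CM and 0 in all 3 shBrca2-CM libraries. H2-Eb1 had 10 and 5 counts with control medium and at most 1 count in any CM library. H2-Aa and the class II transactivator Ciita were not analysed here. One class II gene was called, and that in the same direction as Cd74: H2-DMb1, a chain of the editor that exchanges peptides on class II molecules, rose with shControl-CM (log2 fold change 1.69, SE 0.31, edgeR adjusted p = 0.00276) and with shBrca2-CM (1.42, SE 0.25, edgeR adjusted p = 3.43e-06).

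**Figure D4:**
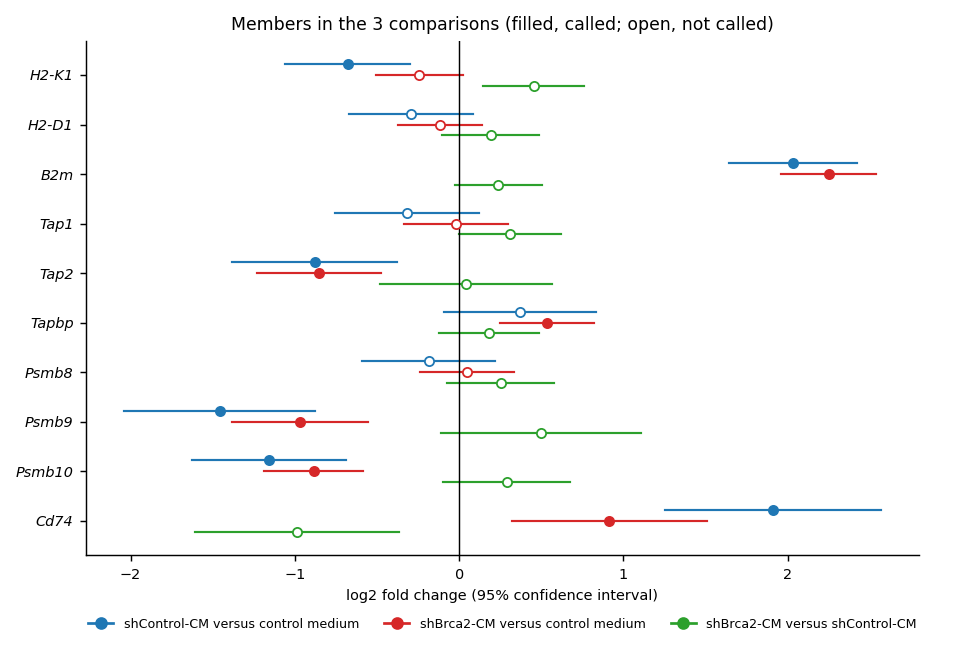
Log2 fold change (x axis) of each member in the 3 comparisons, with 95% confidence intervals from edgeR, filled points called and open points not called. B2m and Cd74 are to the right and Tap2, Psmb9 and Psmb10 to the left of 0 against control medium, and all 10 points between the conditioned media are open.

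The comparison of shBrca2-CM with shControl-CM asks what changes when Brca2 is silenced in the organoids that condition the medium. Over all genes 342 of 11035 were called, and 1476 had an unadjusted p under 0.05. Of the called genes 50% were higher with shBrca2-CM, or 67.7% when libraries were scaled by total counts in place of TMM. No member was called by edgeR or by DESeq2's likelihood ratio test, and 3 and 2 of the 10 members, respectively, had an unadjusted p under 0.05. Against a median of 0.03 over all genes, the median log2 fold change of the members was 0.24, with 9 of 10 above 0. Without overlap, H2-K1 and Tap1 were higher in the 3 shBrca2-CM libraries, as were 9.14% of all genes tested, and Cd74 was lower, as were 10.6%.

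For H2-K1 the log2 fold change from shControl-CM to shBrca2-CM was 0.45 (SE 0.14, 95% confidence interval 0.15 to 0.76, edgeR adjusted p = 0.155). It was called with total count scaling (log2 fold change 0.56, edgeR adjusted p = 0.0759), which moved the median of all genes from 0.03 to 0.14, and without shControl-CM replicate 1 (0.53, edgeR adjusted p = 0.0355). Tap1 had a log2 fold change of 0.31 (SE 0.14, 95% confidence interval 0.00 to 0.62, edgeR adjusted p = 0.371). Cd74 had the largest difference of the members, a log2 fold change of -0.98 (SE 0.29, 95% confidence interval -1.61 to -0.36, edgeR adjusted p = 0.122). Cd74 was called lower when all 3 groups entered one fit (log2 fold change -1.001, edgeR adjusted p = 0.0914), without shControl-CM replicate 1 (-1.09, edgeR adjusted p = 0.0425) and without shControl-CM replicate 3 (-1.09, edgeR adjusted p = 0.0403). By edgeR 0 of the 4 haematopoietic markers were called between the conditioned media, and 1 (Csf1r) had an unadjusted p under 0.05. This marker, named after its values were seen, was lower without overlap, at 7.05, 7.73 and 13.6 CPM with shControl-CM and 0, 1.24 and 3.55 CPM with shBrca2-CM, whereas Cd68, Lyz2 and Fcer1g overlapped.

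For B2m the interval between the conditioned media was -0.03 to 0.50, for H2-D1 -0.10 to 0.49, for Tapbp -0.12 to 0.49 and for Psmb8 -0.07 to 0.58, so that a change of more than about 1.5-fold lay outside them. Intervals were wider for the scarcer members, -0.48 to 0.56 for Tap2, -0.11 to 1.104 for Psmb9 and -0.10 to 0.68 for Psmb10.

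Other genes of the pathway were taken from fixed lists. The counts of each list are to be read beside the shares of all genes tested, 18.4% higher and 19.5% lower with shControl-CM and 19.1% higher and 19.8% lower with shBrca2-CM, both against control medium. Between the conditioned media these shares were 1.55% higher and 1.55% lower with shBrca2-CM. Of 15 further class I heavy chains and class I-like genes, 2 were higher and 3 lower with shControl-CM, and 1 was higher and 3 lower with shBrca2-CM, all at about or under the share over all genes. H2-T23, a nonclassical heavy chain recognised by natural killer cell receptors, was at 162 and 213 CPM with control medium, 23.7, 35.8 and 38.7 CPM with shControl-CM and 24.6, 38.6 and 33.7 CPM with shBrca2-CM. That is a fall of H2-T23 with both conditioned media (log2 fold changes -2.53 and -2.51, SEs 0.23 and 0.19, edgeR adjusted p = 4.62e-05 and 2.42e-17). H2-M3, which presents formylated peptides, was also lower with both (log2 fold changes -1.49 and -1.08, edgeR adjusted p = 0.00279 and 2.69e-04). Cd1d1, which presents lipids, was at 10.4 and 12.5 CPM with control medium, 1.92, 3.87 and 2.72 CPM with shControl-CM and 1.45, 4.98 and 1.78 CPM with shBrca2-CM (log2 fold changes -2.06 and -2.07, edgeR adjusted p = 0.00485 and 4.87e-04), on 1 to 4 counts in each CM library. H2-Q6, of the Qa-2 family, was higher with both (log2 fold changes 0.68 and 1.21, edgeR adjusted p = 0.0674 and 4.98e-08). Between the conditioned media 0 of the 13 of these genes tested were called by edgeR.

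Of 8 loading partners and trimming enzymes, 0 were higher with either conditioned medium, where 18.4% and 19.1% of all genes tested were higher. Lower were 3 with shControl-CM and 2 with shBrca2-CM, where 19.5% and 19.8% of all genes tested were lower. Pdia3, a thiol oxidoreductase of the loading complex, was lower with both (log2 fold changes -1.10 and -0.82, edgeR adjusted p = 0.0373 and 8.37e-06). Erap1, which trims peptides in the endoplasmic reticulum, was lower with shControl-CM (log2 fold change -1.84, SE 0.46, edgeR adjusted p = 0.0137), where it was at 5.77, 2.90 and 1.36 CPM against 13.2 and 11.4 CPM with control medium. Its counts with shControl-CM were 9, 3 and 2, at or under the floor in 2 of 3 libraries. Of the proteasome activator and assembly list, Psme1, Psme2 and Psme3 were lower and Pomp, which assembles new proteasomes, was higher with shControl-CM, and 0 of 4 were called with shBrca2-CM. The PA28 subunits Psme1 and Psme2, which are raised by interferon as the immunoproteasome is, had log2 fold changes of -0.61 and -0.57 with shControl-CM (edgeR adjusted p = 0.0199 for both).

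Of 17 regulators of class I transcription tested with shControl-CM, 4 were higher and 5 lower, and of 16 tested with shBrca2-CM, 4 were higher and 4 lower, not far from the shares over all genes. Irf2, an interferon regulatory factor, and Nfya, a subunit of the factor that binds CCAAT boxes, were lower with both, with log2 fold changes of -0.89 and -1.13 for Irf2 (edgeR adjusted p = 0.0372 and 5.38e-05) and -1.43 and -1.61 for Nfya (edgeR adjusted p = 0.00364 and 1.63e-05). Irf1 was called lower with both as well. Rela, a subunit of NF-kB, was higher with both (log2 fold changes 1.47 and 1.27, edgeR adjusted p = 2.23e-04 and 2.25e-10). Nlrc5, the transactivator of class I genes, had log2 fold changes of 0.19 and 0.22 and did not pass the test (edgeR adjusted p = 0.527 and 0.362).

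Of 16 regulators tested between the conditioned media, 14 were not called. The other 2, Irf7 and Stat2, were higher with shBrca2-CM, where 1.55% of all genes tested were higher. Irf7, which amplifies the type I interferon response, was at 535 and 803 CPM with control medium, 294, 291 and 393 CPM with shControl-CM and 904, 851 and 622 CPM with shBrca2-CM. It was higher with shBrca2-CM than with shControl-CM (log2 fold change 1.30, SE 0.17, edgeR adjusted p = 0.00143) and lower with shControl-CM than with control medium (-1.04, SE 0.20, edgeR adjusted p = 0.00408). Stat2, a transcription factor of the type I interferon signal, was at 220 and 248 CPM with control medium, 341, 239 and 310 CPM with shControl-CM and 544, 485 and 503 CPM with shBrca2-CM. Stat2 rose by 0.80 on the log2 scale from shControl-CM to shBrca2-CM (SE 0.15, edgeR adjusted p = 0.0120), and by 1.13 from control medium to shBrca2-CM (SE 0.14, edgeR adjusted p = 1.84e-09).

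Of 11 interferon receptors and proximal signalling genes, 4 were higher and 1 lower with shControl-CM, where 18.4% of all genes tested were higher and 19.5% lower. With shBrca2-CM 3 were higher and 1 lower, where 19.1% of all genes tested were higher and 19.8% lower. Socs1, which damps JAK-STAT signalling, was lower with both (log2 fold changes -1.97 and -1.87, edgeR adjusted p = 8.30e-04 and 1.36e-08). Jak2 was higher with both (log2 fold changes 1.61 and 1.71, edgeR adjusted p = 1.43e-04 and 9.40e-13), as was the receptor chain Ifnar1 (1.08 and 0.77, edgeR adjusted p = 0.0117 and 0.0226). Socs3, another inhibitor of the family, was at 38.6 and 41.5 CPM with control medium, 152, 145 and 183 CPM with shControl-CM and 72.3, 77.2 and 96.8 CPM with shBrca2-CM, and was the gene of this list called lower with shBrca2-CM than with shControl-CM (log2 fold change -0.92, SE 0.16, edgeR adjusted p = 0.0109).

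Of 8 genes for invariant chain processing and for the MIF receptor, 4 were higher and 1 lower with shControl-CM, beside 18.4% and 19.5% of all genes tested. With shBrca2-CM 3 were higher and 1 lower, beside 19.1% and 19.8% of all genes tested. A pair of cathepsins, lysosomal proteases, was higher with both: Ctsb (log2 fold changes 1.86 and 2.27, edgeR adjusted p = 9.99e-04 and 4.93e-13) and Ctsl (2.90 and 3.27, edgeR adjusted p = 5.06e-04 and 5.67e-09), the latter with 9 counts in each control medium library. Mif, the ligand of Cd74, was at 823 and 1246 CPM with control medium, 1586, 2234 and 2824 CPM with shControl-CM and 1137, 1177 and 1300 CPM with shBrca2-CM. Like Cd74 it was highest with shControl-CM, and it was called lower with shBrca2-CM than with shControl-CM (log2 fold change -0.85, SE 0.18, edgeR adjusted p = 0.0257). Ackr3, a receptor that also binds MIF, was at 14.1 and 15.5 CPM with control medium, 68.6, 61.8 and 93.7 CPM with shControl-CM and 31.8, 17.4 and 46.2 CPM with shBrca2-CM (log2 fold change from shControl-CM to shBrca2-CM -1.17, SE 0.29, edgeR adjusted p = 0.0633).

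**Figure D5:**
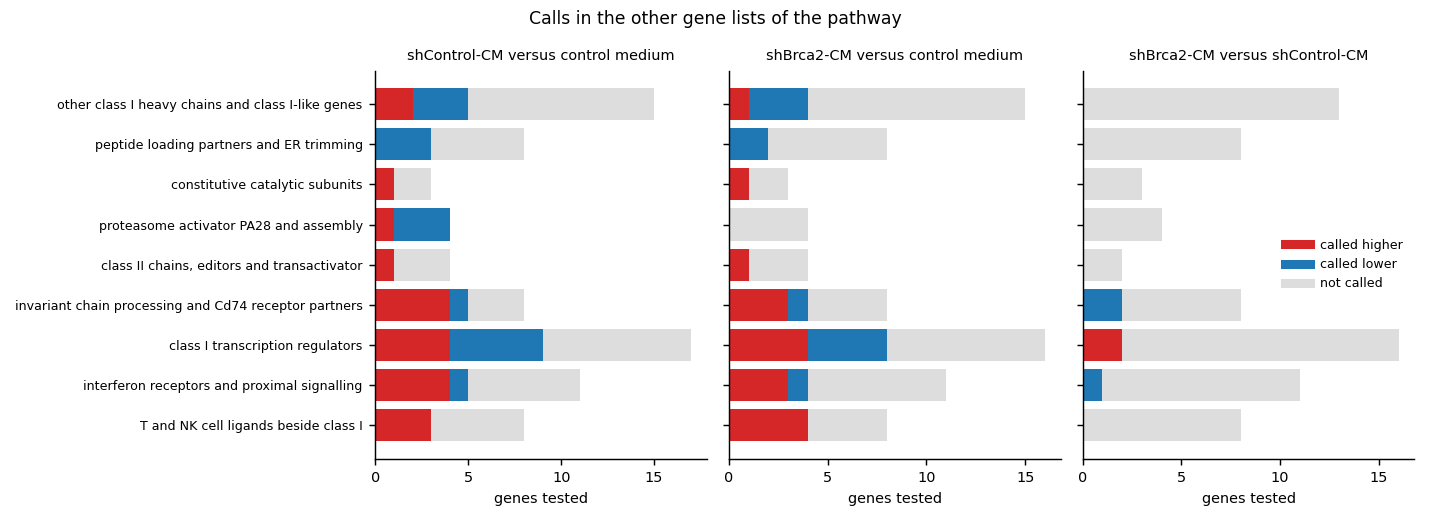
Number of genes tested (x axis) in each of the 9 other lists of the pathway, divided into called higher, called lower and not called, for the 3 comparisons. Calls in both directions occur in 5 of the 9 lists with shControl-CM and in 4 of the 9 with shBrca2-CM against control medium, and 5 genes (Irf7, Stat2, Mif, Ackr3, Socs3) are called between the conditioned media. In that last comparison 1.55% of all genes tested were called higher and 1.55% lower.

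The members had no common pattern, since pairs of them correlated over the 8 libraries by -0.89 (Psmb10 with Cd74) to 0.93 (Tap2 with Psmb9). Genes closest to their average, which need resemble no single member, were looked for outside all lists, among 6153 genes with a mean of at least 20 CPM. The measure was Pearson's correlation over the 8 libraries between log2 CPM and the mean standardized log2 CPM of the 10 members. The 5 highest were Hint2 (r = 0.972), Fam120a (0.912), Tead2 (0.908), Ly6c1 (0.888) and Rpl10a (0.887). These values share their libraries and scaling and describe these 8 libraries. Ly6c1, a surface protein, was at a mean of 193 CPM with control medium, 92.0 CPM with shControl-CM and 185 CPM with shBrca2-CM.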

How the data were processed

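RNA 3' ends of 8 PSC cultures were sequenced by the MARS-seq protocol. The values deposited are raw, unnormalized read counts for each gene. The submitters' processing notes name mm10, bcl2fastq, cutadapt, STAR 2.4.2a, HTSeq and DESeq2. Strand setting, annotation and the handling of molecular identifiers are not given in the sources used here. Samples were grouped by title and recorded treatment, and 1 column, headed as a further DMEM library, matched no sample and was not used, which leaves 2 control medium libraries. Every comparison was a fit of its own groups with edgeR 4.0.16 in R 4.3.3, by the quasi-likelihood test with TMM scaling and Benjamini-Hochberg adjustment, over genes whose counts in that fit summed to 10 or more. Thresholds were those of the study's methods, which used DESeq2, here 1.42.0 and an alternative. In simulated counts 200 genes were given a log2 change of 2, of which edgeR recovered 197 between the conditioned media (10847 genes), 190 with shControl-CM (11984) and 197 with shBrca2-CM (11942) against control medium, with 9, 11 and 13 false calls. Members and lists were chosen with earlier results of these data known. All members were described, and of the other lists at most 25 called genes with the largest absolute log2 fold change were named, except 1 gene that is not reported here. Psme1, Psme2, Psme3, Pomp, Irf1, Nlrc5, H2-Ab1, H2-Eb1 and the epithelial and haematopoietic markers were named beside this rule, after their values were seen. Alternatives were other scalings, filters, thresholds and tools, 1 fit of all groups, a replicate block, thinned libraries and each library left out in turn.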

Additional observations from a re-analysis of the deposited data

How the results depend on the processing

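Over the alternatives other than stricter thresholds, of 150 log2 fold changes of members between the conditioned media 143 kept their direction and side of the threshold, as did 136 of 140 with shControl-CM and 131 of 140 with shBrca2-CM against control medium. Between the conditioned media the number of members called went from 0 to 1 with total counts in place of TMM (H2-K1), to 1 with all 3 groups in one fit (Cd74), and to between 0 and 2 with a library left out. With stricter thresholds (adjusted p under 0.05, log2 fold change beyond 1), members called with shBrca2-CM against control medium went from 6 to 1 (B2m). Leaving out libraries gave 4 to 6 calls with shControl-CM and 5 to 6 with shBrca2-CM against control medium. In libraries thinned to the smallest total, the log2 ratio of Psmb10 to Psmb7 differed from control medium by -3.48 with shControl-CM and -3.05 with shBrca2-CM, in place of -3.07 and -2.57. The cause of these shifts was not tested. Log2 fold changes that changed sign were all of members not called. With libraries left out, Tap2 between the conditioned media ranged from -0.177 to 0.185, Tap1 with shControl-CM from -0.570 to 0.0104, and Tap1 and Psmb8 with shBrca2-CM from -0.293 to 0.316 and from -0.0677 to 0.180. Same-numbered libraries correlated by -0.07 to 0.16 in their deviations from group means, and not every library correlated best with its own number, so the numbers do not pair the samples. With the replicate block the members called were 0, 6 and 5, Tap1 with shBrca2-CM was at 0.0114, and Cd74 with shBrca2-CM was not called (log2 fold change 0.72, edgeR adjusted p = 0.140). Over all genes, calls between the conditioned media went from 342 to between 128 and 982 with a library left out and to 131 with the stricter thresholds. Those with shControl-CM against control medium went from 4571 to between 1925 and 5228, to 2436 and, in thinned libraries, to 2927, and those with shBrca2-CM from 4679 to 2267 with the stricter thresholds. Total count scaling moved the median of all genes with shControl-CM from -0.10 to -0.21. In thinned libraries B2m and Cd74 with shControl-CM were at 1.999 and 2.187, in place of 2.03 and 1.91. A count of 3 corresponds to 2.66 to 4.34 CPM in the shBrca2-CM libraries, which limits genes of low count, and a group of 2 control medium libraries underlies every comparison with control medium.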

Other observations

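Class I is one of several surface signals by which T and natural killer cells read a cell, and 8 further ligands were in the table. With shControl-CM 3 of them were higher and 0 lower, and with shBrca2-CM 4 were higher and 0 lower, by edgeR, where 18.4% and 19.1% of all genes tested were higher and 19.5% and 19.8% lower. Nectin2, a ligand of activating and inhibitory receptors of these cells, had log2 fold changes of 1.89 and 1.70 (standard errors 0.19 and 0.17, edgeR adjusted p = 1.02e-04 and 8.36e-13). Pvr, which binds the same receptors, had log2 fold changes of 1.61 and 1.31 (standard errors 0.17 and 0.16, edgeR adjusted p = 1.18e-04 and 1.55e-09). Icam1, an adhesion ligand of leukocyte integrins, had log2 fold changes of 0.82 and 1.16 (standard errors 0.27 and 0.22, edgeR adjusted p = 0.0408 and 1.48e-05). Between the conditioned media 0 of the 8 were called by edgeR, where 1.55% of all genes tested were higher and 1.55% lower.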
